A study of Mus musculus with 30 samples.

Results

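The genes for transforming growth factor beta (TGF-beta), activin and myostatin and for the TGF-beta receptors were followed in differentiating C2C12 cells. The set held 9 genes, namely the ligand genes Tgfb1, Tgfb2, Tgfb3, Inhba, Inhbb and Mstn and the receptor genes Tgfbr1, Tgfbr2 and Tgfbr3. Each gene was read from probe sets, the groups of short probes with which the array detects a transcript, whose symbol in the platform annotation was that gene alone. Of the 9 genes, 8 were found in this way, with 19 of the 45101 probe sets and as 8 of 18194 genes carrying 1 symbol. For each of them the probe set that was brightest on average across the 30 arrays was used. Myostatin was named by none of the probe sets in the annotation used here and was not analysed here.

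C2C12 is a mouse myoblast line, whose cells fuse into muscle fibres when serum is reduced and turn to the osteoblast lineage when bone morphogenetic protein 2 (BMP2) is added. C2C12-pMirn378 cells carried a lentiviral vector that expresses the precursor of miR-378, and C2C12-pMirn0 cells carried the parent vector. Both lines also expressed the green marker protein copGFP and were sorted for it, so each line is 1 transduced cell population. Cells of each line were taken at d0, and after 3 and 6 days in differentiation medium, to which BMP2 at 300 ng/ml was added or not (untreated). Each of these 10 groups had 3 arrays from replicate cultures of the same line, and p-values therefore measure the spread between cultures and not between transductions. Mature miR-378 is not read by these arrays, and its excess in C2C12-pMirn378 cells was not checked here.

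TGF-beta is secreted in a latent complex and, once released, binds the type II receptor encoded by Tgfbr2, which recruits and activates the type I receptor encoded by Tgfbr1. These receptors phosphorylate Smad2 and Smad3, whereas BMP2 signals through other receptors and other Smads. Activin A and activin B are dimers of the inhibin beta chains encoded by Inhba and Inhbb, they use activin receptors to reach the same Smad2 and Smad3, and follistatin binds and blocks them. In muscle, TGF-beta and myostatin are known as inhibitors of myoblast differentiation, and in bone TGF-beta is stored in the matrix.

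The promoter windows of 7 of the 9 genes were found in the RefSeq table for GRCm38.p6, and those of 4 ligand genes are shown because the levels of these genes moved in different ways with BMP2 and with the line. Each sequence is the 250 bases upstream of an annotated start site, written 5′ to 3′ on the strand of the gene. Capitals mark matches to TATAAA, called TATA here, on either strand. They also mark matches to the GC box GGGCGG on either strand, those on the opposite strand being read in reverse complement. The windows were Inhba (chr13:16011601-16011850, plus strand), Inhbb (chr1:119422249-119422498, minus strand), Tgfb1 (chr7:25686752-25687001, plus strand) and Tgfb2 (chr1:186705990-186706239, minus strand).
Inhba: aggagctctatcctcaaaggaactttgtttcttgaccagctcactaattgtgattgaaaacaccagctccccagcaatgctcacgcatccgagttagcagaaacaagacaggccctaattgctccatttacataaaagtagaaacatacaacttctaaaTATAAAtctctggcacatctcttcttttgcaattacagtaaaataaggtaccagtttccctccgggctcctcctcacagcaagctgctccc
Inhbb: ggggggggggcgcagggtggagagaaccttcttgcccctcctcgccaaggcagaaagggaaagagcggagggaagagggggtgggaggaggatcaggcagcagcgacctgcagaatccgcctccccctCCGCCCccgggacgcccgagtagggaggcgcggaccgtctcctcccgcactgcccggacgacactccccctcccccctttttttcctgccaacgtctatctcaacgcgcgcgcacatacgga
Tgfb1: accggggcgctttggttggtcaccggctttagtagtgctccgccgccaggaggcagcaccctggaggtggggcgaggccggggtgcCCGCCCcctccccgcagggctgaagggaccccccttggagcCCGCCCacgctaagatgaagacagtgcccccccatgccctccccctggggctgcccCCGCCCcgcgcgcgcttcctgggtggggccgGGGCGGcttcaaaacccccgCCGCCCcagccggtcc
Tgfb2: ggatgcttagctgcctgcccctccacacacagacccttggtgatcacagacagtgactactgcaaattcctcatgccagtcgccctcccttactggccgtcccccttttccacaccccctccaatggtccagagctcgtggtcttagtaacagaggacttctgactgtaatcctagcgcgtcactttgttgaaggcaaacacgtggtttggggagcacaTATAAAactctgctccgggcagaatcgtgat

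The window of Inhba held 1 TATA match at -91 and 43.2% G and C bases, and that of Tgfb2 held 1 TATA match at -31 and 53.6% G and C bases. The window of Tgfb1 held 5 GC boxes and 75.2% G and C bases, and that of Inhbb held 1 GC box and 68.0% G and C bases. Of 32851 promoter windows of the same length, 12.4% held a TATA match and 32.7% held a GC box. The E-box CANNTG, the site type of myogenic regulators, was in 66.2% of the windows, and the Smad box CAGAC was in 42.2%. The windows of Inhba, Inhbb and Tgfb1 held neither of these, whereas that of Tgfb2 held 1 E-box at -51 and Smad boxes at -221 and -204. These matches describe the letters of the windows only.

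The intensities of all probe sets had a median of 76.5, the median of single arrays lay between 68.0 and 82.7, and Pearson r between arrays of a group lay between 0.948 and 0.957. Within groups, bright probe sets, those in the upper part of the intensity range from the median on, had a median SD of 0.14 in log2 units, and dim ones had 0.85. Muscle markers were read in every group, with all 6 of 6 at or above the median level of all values. Their summed intensity was 8219 to 12270 in C2C12-pMirn378 cells with BMP2 and 12891 to 16497 in C2C12-pMirn0 cells with BMP2, against 48435 to 67213 and 57783 to 66139 in the untreated cultures of these lines. Of the 6, Myf5 went the other way. It averaged 5377 and 5642 at d3 and d6 with BMP2 in C2C12-pMirn0 cells, against 1853 and 1975 without BMP2. In C2C12-pMirn378 cells its means were 2778 and 3289, against 2300 and 2252. The 3 osteoblast markers that were used, Sp7, Alpl and Dlx5, summed to 5964 to 7678 in C2C12-pMirn378 cells with BMP2 and to 2685 to 3560 in C2C12-pMirn0 cells with BMP2, against at most 201 in any untreated culture of d3 or d6. Runx2 and Bglap, which the paper shows from these arrays, were left out. No probe set carried either symbol alone in the annotation used here. Of 4 adipocyte markers, summed at 3093 to 3255 in C2C12-pMirn378 cells and 4616 to 4849 in C2C12-pMirn0 cells at d6 with BMP2, 3 were at or above the median level there, and the sums were 236 to 371 in untreated cultures of d3 and d6. Most of the sums at d6 with BMP2 was Fabp4, at means of 2623 in C2C12-pMirn378 and 4095 in C2C12-pMirn0 cells. Pparg averaged 262 and 328 there and Cebpa 284 and 291, whereas the highest group mean of Adipoq was 19.7. The 4 chondrocyte markers summed to 1065 to 1705 in C2C12-pMirn378 cells and 972 to 1295 in C2C12-pMirn0 cells with BMP2, against 494 to 594 and 461 to 573 in their untreated cultures of d3 and d6, and to 1223 to 1642 at d0. Among them Col2a1, the type II collagen gene, averaged at least 332 in each group with BMP2, against at most 12.3 in any other group. Sox9 averaged 628 to 899 with BMP2, above the 399 to 482 of untreated d3 and d6 cultures. At d0 it was higher still, at 1186 in C2C12-pMirn0 and 1465 in C2C12-pMirn378 cells. Acan and Comp were dim throughout, with highest group means of 46.9 and 46.7. Macrophage markers summed to between 233 and 371 in all groups, and at most 1 of 4 endothelial markers reached the median level in any group.

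A difference was called where the log2 ratio exceeded 0.6 in size and limma's adjusted p was below 0.005. With BMP2 against untreated cells, Inhba was called higher at d3 and d6 in both lines, and Tgfb1 was called higher in 3 of these 4 comparisons. Tgfb3, Tgfbr1, Tgfbr2 and Inhbb were called lower at d6 in both lines. In C2C12-pMirn378 cells, 4 of the 8 genes were called at d3, where 23.0% of all genes were called, and 7 of 8 at d6, where 21.7% were. In C2C12-pMirn0 cells, 6 of 8 were called at d3 and 5 of 8 at d6, against 19.5% and 21.5% of all genes. The median log2 ratio of the 8 genes at d6 was -0.79 in C2C12-pMirn378 cells and -1.07 in C2C12-pMirn0 cells, beside -0.03 and 0.08 for all genes. At d3 the medians of the 8 genes were 0.21 and -0.23, beside -0.03 and 0.05. All of these are levels of RNA from whole cultures, in which fewer cells of a type and less RNA per cell cannot be told apart, and the marker sums above moved with BMP2 in the same cultures, where their part in the results was not tested.

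**Figure D1:**
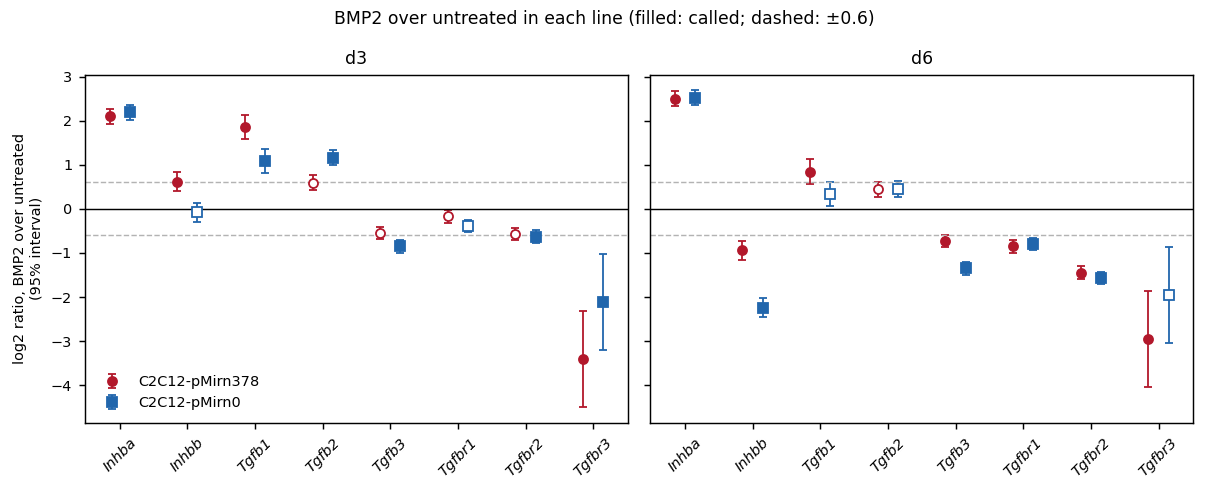
Log2 ratio of BMP2-treated over untreated cells (vertical axis) for the 8 measured genes at d3 and d6, with C2C12-pMirn378 (circles) left of C2C12-pMirn0 (squares), bars for the 95% interval of the fit and filled symbols for calls. Inhba stood at 2.10 to 2.52 in all 4 comparisons, and Inhbb at d6 stood at -0.94 and -2.24.

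Inhba, which encodes the beta A chain of activin A, had the highest rise with BMP2 among the 8 genes. In C2C12-pMirn378 cells it read 5830.5, 5721 and 5119 at d3 and 9025, 8561 and 8238 at d6 with BMP2, against 1435, 1186 and 1283 at d3 and 1649, 1374 and 1553 at d6 without it. In C2C12-pMirn0 cells it read 6609, 6681 and 6178 at d3 and 8713, 9410.3 and 8742 at d6 with BMP2, against 1388, 1357 and 1527 at d3 and 1576, 1515 and 1591 at d6 without it. Every treated culture thus lay above every untreated one. The increase was 4.28-fold at d3 and 5.66-fold at d6 in C2C12-pMirn378 cells (log2 ratio 2.10 ± 0.08 and 2.50 ± 0.08, SE; adjusted p = 1.82e-15 and 8.37e-17), and 4.56-fold and 5.74-fold in C2C12-pMirn0 cells (adjusted p = 1.08e-15 and 8.69e-17). The difference between the lines in this response was -0.09 at d3 (95% interval -0.33 to 0.14) and -0.02 at d6 (-0.26 to 0.22), and it was not called at either day.

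Inhba also moved away from its level at d0 in opposite directions in the absence and presence of BMP2. Its d0 intensities were 2523, 2525 and 2432 in C2C12-pMirn378 cells and 2125, 1909.7 and 2071 in C2C12-pMirn0 cells, so that each untreated culture of d3 and d6 lay below, and each treated one above, the d0 cultures of its line. Without BMP2 it fell by 0.94 at d3 and by 0.71 at d6 on the log2 scale in C2C12-pMirn378 cells, both called, whereas the ratios of -0.52 and -0.38 in C2C12-pMirn0 cells missed the minimum size for a call. With BMP2 it was 2.23-fold and 3.45-fold above d0 in C2C12-pMirn378 cells and 3.19-fold and 4.40-fold above d0 in C2C12-pMirn0 cells. All comparisons with d0 in a line share its 3 arrays of d0. The other probe set of Inhba was dim, with a mean log2 value of 3.26 against a median of 6.26 for all values, and none of its 19 comparisons was called, with a sign opposite to the brighter one in all but 1 of the 4 comparisons of BMP2 with untreated cells.

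**Figure D2:**
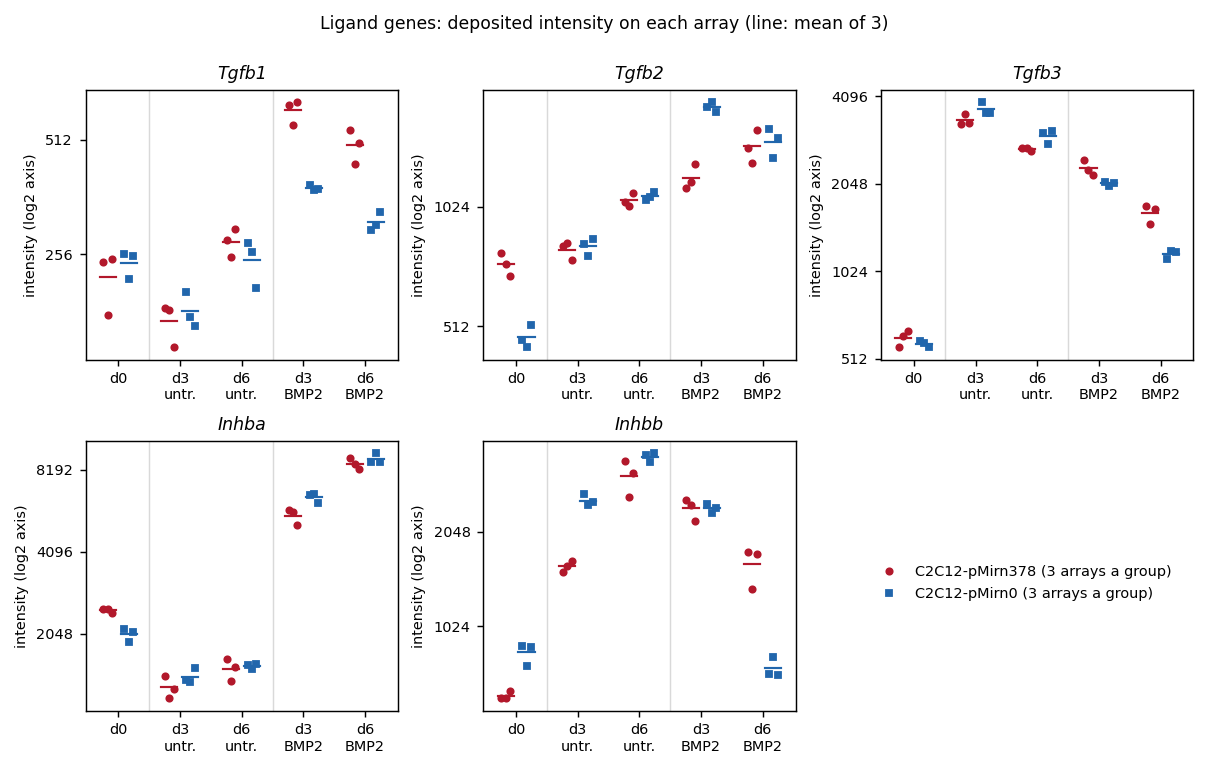
Deposited intensity (vertical log2 axis) on each array for the 5 measured ligand genes, by day and treatment, with C2C12-pMirn378 (circles) left of C2C12-pMirn0 (squares) and a line at the mean of 3 arrays. Inhba lies at 5119 or more in every BMP2-treated culture and at 1649 or less in every untreated culture of d3 and d6.

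Inhbb, which encodes the beta B chain of activin B, did not follow Inhba. In C2C12-pMirn378 cells its intensities were 603, 606 and 638 at d0, 1522, 1595 and 1651 at d3 and 3453, 2657 and 3162 at d6 without BMP2. In C2C12-pMirn0 cells they were 889, 763 and 883 at d0, 2700.4, 2494 and 2548 at d3 and 3614, 3418 and 3653 at d6. Inhbb was thus called higher than at d0 in both lines, 2.58-fold at d3 and 4.99-fold at d6 in C2C12-pMirn378 cells and 3.06-fold and 4.22-fold in C2C12-pMirn0 cells. With BMP2 it read 2597, 2490.2 and 2222 at d3 and 1762, 1344 and 1737 at d6 in C2C12-pMirn378 cells, and 2525, 2350.0 and 2445 at d3 and 724, 818 and 717 at d6 in C2C12-pMirn0 cells. At d6 the treated C2C12-pMirn0 cultures overlapped with d0, 1 of them within its range and the others below it, at a log2 ratio of -0.17 to d0 (95% interval -0.38 to 0.05, not called), whereas those of C2C12-pMirn378 cells stayed 2.60-fold above d0 (adjusted p = 1.60e-10).

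Against untreated cells of the same day, BMP2 lowered Inhbb at d6 by 0.94 on the log2 scale in C2C12-pMirn378 cells and by 2.24 in C2C12-pMirn0 cells (adjusted p = 1.05e-07 and 4.21e-14). At d3 the ratio was 0.61 in C2C12-pMirn378 cells and -0.08 in C2C12-pMirn0 cells. The call in C2C12-pMirn378 cells at d3 was at the edge of the minimum size, and it was lost when untreated replicate 1, BMP2 replicate 1 or BMP2 replicate 2 was left out (0.57 to 0.60) and under other scalings of the arrays (0.52 and 0.59). The responses of the lines to BMP2 differed at d6 by 1.30 ± 0.14 (SE; adjusted p = 5.77e-06), which was called. At d3 they differed by 0.69 ± 0.14 (adjusted p = 0.00584), just outside the threshold, and this difference was called under 6 of the other settings tried, with adjusted p between 0.000731 and 0.00472.

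Comparing the lines directly, Inhbb was 1.62-fold lower in C2C12-pMirn378 cells relative to C2C12-pMirn0 cells at d3 without BMP2 (log2 ratio -0.70, adjusted p = 0.000353) and 2.13-fold higher at d6 with BMP2 (log2 ratio 1.09, adjusted p = 2.22e-07). The 3 arrays of the lines did not overlap in either case. At d0 the ratio was -0.45 (adjusted p = 0.0145), at d6 without BMP2 it was -0.21 and at d3 with BMP2 it was 0.00, and none of these was called. The second probe set of Inhbb gave the same sign in 18 of 19 comparisons. On it the line difference of 0.43 at d6 with BMP2 and of -0.36 at d3 without BMP2 and the interaction of 0.50 at d6 were not called.

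Tgfb1, the most widely studied TGF-beta ligand gene, had low intensities at d0, of 243, 177 and 249 in C2C12-pMirn378 cells and 256, 220.4 and 253 in C2C12-pMirn0 cells. With BMP2 it read 635, 561 and 644 at d3 and 544, 441 and 503 at d6 in C2C12-pMirn378 cells, against 184, 182 and 145 at d3 and 279, 251 and 297 at d6 in untreated cells. In C2C12-pMirn0 cells it read 389, 377 and 381 at d3 and 296, 305 and 331 at d6 with BMP2, against 203, 174 and 166 at d3 and 274, 259 and 208 at d6 without it. The treated cultures were above the untreated ones at both days and in both lines, without overlap. BMP2 raised Tgfb1 3.61-fold at d3 and 1.80-fold at d6 in C2C12-pMirn378 cells (adjusted p = 1.01e-10 and 1.89e-05) and 2.12-fold at d3 in C2C12-pMirn0 cells (adjusted p = 6.84e-07). The log2 ratio of 0.34 in C2C12-pMirn0 cells at d6 was not called (adjusted p = 0.0533).

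With BMP2, Tgfb1 was 1.60-fold higher in C2C12-pMirn378 cells relative to C2C12-pMirn0 cells at d3 and 1.59-fold higher at d6 (log2 ratio 0.68 and 0.67, adjusted p = 0.00108 and 0.00193), and the arrays of the lines did not overlap. Both calls were lost when 1 of several arrays was left out, with the direction kept. At d3 these were replicates 1 and 3 of C2C12-pMirn378 and replicates 2 and 3 of C2C12-pMirn0, with adjusted p between 0.00543 and 0.00735, and at d6 replicates 1 and 3 of C2C12-pMirn378 and replicates 1 and 2 of C2C12-pMirn0, with adjusted p between 0.00999 and 0.0178. The test of a different response to BMP2 in the lines gave 0.77 ± 0.19 at d3 and 0.51 ± 0.19 at d6 (SE; adjusted p = 0.0200 and 0.163), neither of which was called. Without BMP2 and at d0 the lines overlapped in Tgfb1. Its second probe set, with a mean log2 value of 6.48, also read higher in C2C12-pMirn378 cells with BMP2, by 0.75 at d3 and 0.45 at d6, without a call, and gave a ratio of 0.09 for BMP2 in C2C12-pMirn0 cells at d3.

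Tgfb2, a ligand gene that depends on the coreceptor betaglycan for receptor binding, was called higher than at d0 in all groups of C2C12-pMirn0 cells but only with BMP2 in C2C12-pMirn378 cells. In C2C12-pMirn378 cells it read 784, 733 and 686 at d0, 814, 831 and 750.2 at d3 and 1054, 1028 and 1109 at d6 without BMP2. The untreated d6 cultures of this line thus all lay above its d0 cultures, without a call on the brightest probe set. All 4 probe sets rose there, by 0.39 to 0.68 on the log2 scale, and 1 of them was called. In C2C12-pMirn0 cells Tgfb2 read 472, 454 and 517 at d0, 825, 768 and 849.9 at d3 and 1065, 1086 and 1116 at d6 without BMP2. The lines therefore differed at d0 and overlapped from d3 on in untreated cultures. The d0 difference was 1.53-fold (log2 ratio 0.61, adjusted p = 0.000105), and it fell below the minimum size for a call without replicate 1 of C2C12-pMirn378 or replicate 1 or 2 of C2C12-pMirn0 (0.56 to 0.60), with an offset (0.59) or with quantile normalization (0.60). All 4 probe sets of Tgfb2 gave the same direction at d0, with log2 ratios between 0.43 and 0.61.

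With BMP2, Tgfb2 read 1138, 1179 and 1311 at d3 and 1439, 1322 and 1593 at d6 in C2C12-pMirn378 cells, and 1823, 1876 and 1771 at d3 and 1606, 1354 and 1519.8 at d6 in C2C12-pMirn0 cells. At d3 all treated C2C12-pMirn378 cultures lay below all treated C2C12-pMirn0 cultures, and at d6 the lines overlapped. BMP2 raised Tgfb2 2.24-fold in C2C12-pMirn0 cells at d3 (adjusted p = 1.04e-10), with 4 of 4 probe sets called. In C2C12-pMirn378 cells the log2 ratio of 0.60 at d3 was not called on the brightest probe set, since it lay just under the minimum of 0.6, whereas the other 3 probe sets were called. At d6 the treated cultures of each line lay above its untreated ones, without a call on the brightest probe set. Over the 4 probe sets the d6 ratios were 0.44 to 0.80 in C2C12-pMirn378 and 0.45 to 0.91 in C2C12-pMirn0 cells, with 2 called in each line. At d3 with BMP2 the log2 ratio between the lines was -0.59 (adjusted p = 2.24e-05), and the difference between the lines in the response to BMP2 was -0.57 (adjusted p = 0.00529), and both were just outside the thresholds. Both were called with quantile normalization (-0.62 and -0.60) and without BMP2 replicate 3 of C2C12-pMirn378 (-0.65 and -0.63), and the line difference also without BMP2 replicate 3 of C2C12-pMirn0 (-0.62).

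Tgfb3, the third TGF-beta ligand gene, showed the largest increase of the ligand genes at d3 in myogenic medium. It read 559.8, 613 and 638 at d0, 3287, 3546 and 3301 at d3 and 2705, 2715 and 2659 at d6 in untreated C2C12-pMirn378 cells. In untreated C2C12-pMirn0 cells it read 588, 577 and 563 at d0, 3906, 3573 and 3588 at d3 and 3057, 2796 and 3110.2 at d6. The rise over d0 was 5.60-fold at d3 and 4.47-fold at d6 in C2C12-pMirn378 cells and 6.40-fold and 5.18-fold in C2C12-pMirn0 cells, with adjusted p between 4.17e-18 and 1.32e-16. With BMP2 it read 2473, 2284 and 2189 at d3 and 1719.9, 1492 and 1670.4 at d6 in C2C12-pMirn378 cells, and 2081, 2007 and 2064 at d3 and 1129, 1197 and 1191 at d6 in C2C12-pMirn0 cells, in between d0 and the untreated cultures.

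Against untreated cells, BMP2 lowered Tgfb3 by 0.73 on the log2 scale in C2C12-pMirn378 cells at d6 and by 0.85 at d3 and 1.35 at d6 in C2C12-pMirn0 cells. The ratio of -0.55 in C2C12-pMirn378 cells at d3 missed the minimum size, although treated and untreated arrays did not overlap, and it was called at -0.64 when arrays were centred on the bright probe sets. The lines differed in this response at d6 by 0.62 ± 0.10 (SE; adjusted p = 0.000411), a call that was lost at 0.58 to 0.60 without BMP2 replicate 1 or 3 of C2C12-pMirn378, BMP2 replicate 1 of C2C12-pMirn0 or untreated replicate 3 of C2C12-pMirn0. The direct difference between the lines at d6 with BMP2 was 0.47 (adjusted p = 7.57e-05), which was not called by size. Tgfb3 had 1 probe set in the annotation used here, so its values have no check by another one.

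Of the receptor genes, Tgfbr2, for the type II receptor, read 2255, 2317 and 2272 at d0, 4739, 4099 and 4212 at d3 and 5436, 5305 and 4969 at d6 in untreated C2C12-pMirn378 cells. In untreated C2C12-pMirn0 cells it read 2871, 2773 and 2765 at d0, 4228, 3814 and 4139 at d3 and 4999.8, 5323 and 5008 at d6. With BMP2 it read 3135, 2776 and 2840.0 at d3 and 1941, 1997 and 1828 at d6 in C2C12-pMirn378 cells, and 2730.1, 2507 and 2636 at d3 and 1765, 1670.5 and 1735 at d6 in C2C12-pMirn0 cells. Every treated culture of d3 and d6 thus lay below every untreated culture of these days. At d6 the level with BMP2 was 2.72-fold lower in C2C12-pMirn378 cells and 2.96-fold lower in C2C12-pMirn0 cells (log2 ratio -1.45 and -1.57, adjusted p = 5.99e-14 and 1.45e-14).

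At d3 the ratios of Tgfbr2 were -0.58 in C2C12-pMirn378 and -0.63 in C2C12-pMirn0 cells, and only that in C2C12-pMirn0 cells was called. That call was lost at -0.60 without untreated replicate 1 or BMP2 replicate 2 of C2C12-pMirn0 and at -0.59 with quantile normalization. In C2C12-pMirn378 cells the ratio was called without untreated replicate 2 (-0.62), without BMP2 replicate 1 (-0.63) or with centring on the bright probe sets (-0.67). The lines did not differ in their response by a call, at 0.05 (95% interval -0.14 to 0.25) at d3 and 0.12 (-0.08 to 0.32) at d6. None of the 5 differences between the lines was called for Tgfbr2, and the largest in size was -0.30 at d0 (adjusted p = 0.0147). The other probe sets of Tgfbr2 were dim, with mean log2 values of 5.23 and 3.92. Over the 3 probe sets the d6 ratios with BMP2 were -2.54 to -0.74 in C2C12-pMirn378 cells, with 2 called. In C2C12-pMirn0 cells they were -1.57 to 1.25, with 1 called.

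Tgfbr1, for the type I receptor, varied least, with a range of 0.92 on the log2 scale over the 10 group means. At d6 it read 1052, 1041 and 1096 with BMP2 against 1842, 1930.2 and 1964 without it in C2C12-pMirn378 cells, and 1122, 1119 and 1231 against 2006, 1913 and 2096 in C2C12-pMirn0 cells. These groups did not overlap, and Tgfbr1 was 1.80-fold lower in C2C12-pMirn378 and 1.73-fold lower in C2C12-pMirn0 cells with BMP2 (adjusted p = 1.03e-09 and 3.06e-09). Its d0 means were 1276 ± 52.6 in C2C12-pMirn378 and 1253 ± 71.1 in C2C12-pMirn0 cells (SD, n = 3 each). At d3 the ratios of -0.17 and -0.39 were not called. Among the time comparisons only d6 over d0 in untreated C2C12-pMirn0 cells was called, at 1.60-fold, and the corresponding ratio of 0.58 in C2C12-pMirn378 cells missed the minimum size, being called without d0 replicate 1 or untreated d6 replicate 1 of that line (both 0.61) and with quantile normalization (0.60). Its line differences lay between -0.14 and 0.07, without a call. The other probe sets of Tgfbr1 were dim, with mean log2 values of 5.03 and 4.96. Over the 3 probe sets the d6 ratios with BMP2 were -0.85 to -0.10 in C2C12-pMirn378 and -0.79 to 0.30 in C2C12-pMirn0 cells. Only the brightest one was called there.

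Tgfbr3, for betaglycan, which presents TGF-beta to the type II receptor and binds inhibin, was dim in several groups. In C2C12-pMirn378 cells it read 23.1, 13.6 and 86.2 at d0, 315, 345 and 289 at d3 and 494, 562 and 689 at d6 without BMP2, and 40.2, 55.7 and 11.7 at d3 and 73.7, 88.4 and 63.3 at d6 with BMP2. In C2C12-pMirn0 cells it read 131, 134 and 92.6 at d0, 371, 562 and 338 at d3 and 387, 381 and 503 at d6 without BMP2, and 87.0, 73.1 and 139.8 at d3 and 66.1, 139 and 141 at d6 with BMP2. All untreated cultures of d3 and d6 were above all others. The treated and the d0 cultures read 11.7 to 141, against a median of 76.5 for all values. Lowest were C2C12-pMirn378 cells at d0 and at d3 with BMP2, with mean log2 values of 4.91 and 4.89 against a median of 6.26. Below the median the spread between arrays was large.

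BMP2 lowered Tgfbr3 in C2C12-pMirn378 cells, with log2 ratios of -3.41 at d3 and -2.95 at d6 (SE 0.52; adjusted p = 1.36e-05 and 8.65e-05). When the limma fit held only the compared groups, the call in this line at d3 was lost (adjusted p = 0.0139). On the second probe set, with a mean log2 value of 4.01, the ratios in this line were -2.04 and -2.06, without a call. In C2C12-pMirn0 cells the ratios were -2.10 at d3 (adjusted p = 0.00305) and -1.95 at d6 (adjusted p = 0.00518). The d3 call was lost without any 1 of its 6 arrays except BMP2 replicate 3, with adjusted p up to 0.0195, and the d6 ratio was called when values under 50 were set to 50 (adjusted p = 8.66e-06). Since intensities this low hold background as well, the size of these ratios is uncertain, as the 95% intervals of -4.50 to -2.32 and -3.19 to -1.01 at d3 show. Between the lines, Tgfbr3 was lower in C2C12-pMirn378 cells at d0 by 1.97 and at d3 with BMP2 by 1.69 on the log2 scale, and neither was called (adjusted p = 0.0394 and 0.0377). Without replicate 3 of C2C12-pMirn378 at d0, which read 86.2, the d0 ratio of -2.73 was called (adjusted p = 0.00221).

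**Figure D3:**
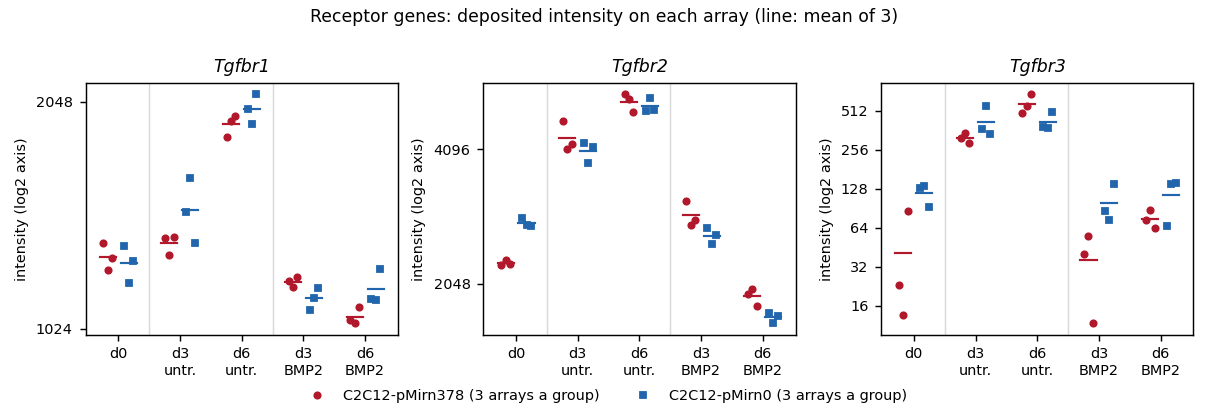
Deposited intensity (vertical log2 axis) on each array for the 3 receptor genes, by day and treatment, with C2C12-pMirn378 (circles) left of C2C12-pMirn0 (squares) and a line at the mean of 3 arrays. Tgfbr1 and Tgfbr2 were highest at d6 without BMP2 in both lines, and Tgfbr3 spreads from 11.7 to 86.2 in the dimmest groups.

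Set against d0, 5 of the 8 genes were called in untreated C2C12-pMirn378 cells at d3 and 5 at d6, where 23.5% and 24.4% of all genes were called. With BMP2 the counts in C2C12-pMirn378 cells were 5 at d3 and 5 at d6, beside 25.1% and 24.7% of all genes. In C2C12-pMirn0 cells 3 of 8 were called at d3 and 5 of 8 at d6 without BMP2, beside 22.6% and 24.2%, and 5 at d3 and 4 at d6 with BMP2, beside 22.9% and 22.1%. Tgfb3 was called higher in each of these 8 comparisons. Inhbb was called higher in 7 of them, the exception being d6 with BMP2 in C2C12-pMirn0 cells. Tgfbr2 was called higher than at d0 in untreated C2C12-pMirn378 cells at both days and in untreated C2C12-pMirn0 cells at d6. At d3 in untreated C2C12-pMirn0 cells its arrays also lay above d0, at 3814 to 4228 against 2765 to 2871. This was not called on the brightest probe set, whereas the second one was called, at 2.05. At d6 with BMP2 Tgfbr2 was 1.63-fold lower than at d0 in C2C12-pMirn0 cells. Tgfb1 at d3 with BMP2 in C2C12-pMirn0 cells, one of the calls counted here at 0.66, fell below the minimum size without d0 replicate 2 (0.59) and under both other scalings of the arrays (0.58).

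Between the lines, C2C12-pMirn378 over C2C12-pMirn0, 1 of the 8 genes was called at d0 (Tgfb2, higher), where 0.824% of all genes were called, and 1 at d3 without BMP2 (Inhbb, lower), where 0.720% were. At d6 without BMP2 limma called 0 of 8, beside 0.247% of all genes, and 1 of 8 had an unadjusted p under 0.05. With BMP2 the call at d3 was Tgfb1, higher, 1 of 8 beside 4.38%, and the calls at d6 were Tgfb1 and Inhbb, both higher, 2 of 8 beside 2.85%. For the difference between the lines in the response to BMP2, limma called 0 of 8 at d3 beside 2.00% of all genes, with 5 of 8 at an unadjusted p under 0.05, and 2 of 8 at d6, Inhbb and Tgfb3, beside 2.02%. When the fit held only the groups of the comparison, limma called 0 of these line differences and 0 of these interactions, with 12 and 8 at an unadjusted p under 0.05. The BMP2-treated cultures in which the lines differed also differed in the osteoblast and muscle marker sums given above, and the part of this in the line differences was not tested.

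**Figure D4:**
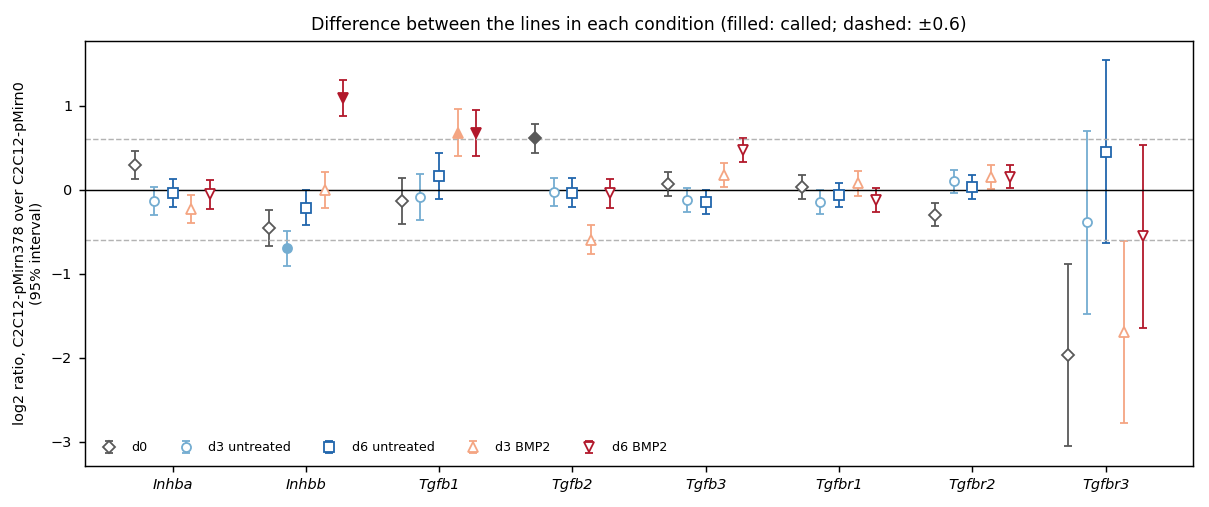
Log2 ratio of C2C12-pMirn378 over C2C12-pMirn0 cells (vertical axis) for the 8 genes in the 5 conditions, with bars for the 95% interval of the fit and filled symbols for calls. Inhbb stands at -0.70 at d3 without BMP2 and at 1.09 at d6 with BMP2, and Tgfb1 at 0.68 and 0.67 with BMP2.

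The order of the 10 group means set the genes apart in a further way. Inhba, Tgfb1 and Tgfb2 had their 4 highest means in the 4 BMP2-treated groups, and Tgfb3, Inhbb and the 3 receptor genes were highest in untreated cells. Among the 10 groups Tgfb2 was highest in BMP2-treated C2C12-pMirn0 cells at d3 and lowest at d0. For Inhba the d6 groups of the lines with BMP2 overlapped, and so did neighbours in the order among the 4 untreated groups of d3 and d6, whereas the other neighbours did not. For Tgfb3 only the d0 groups of the lines overlapped among neighbours. For Tgfb1 only the 3 highest groups, C2C12-pMirn378 at d3 and d6 and C2C12-pMirn0 at d3 with BMP2, were set apart from their neighbours. For Inhbb the 5 highest groups, the untreated groups of d6, C2C12-pMirn0 at d3 without BMP2 and both lines at d3 with BMP2, overlapped from one to the next. For Tgfbr1 the d6 untreated groups were set apart from the rest, within which all neighbours overlapped, and for Tgfbr3 the 4 untreated groups of d3 and d6 were set apart from the other 6 groups. Over the 10 group means Pearson r was 0.86 between Tgfb3 and Inhbb, 0.86 between Tgfbr1 and Tgfbr2, 0.80 between Tgfb1 and Inhba and -0.84 between Inhba and Tgfbr2. These values describe 10 groups that share their treatments and days.

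Genes were compared by pattern where their mean was at or above the median of all values and their group means spanned at least 1 on the log2 scale. Among 5453 such genes, those whose group means were most like Inhba were Yes1, Slc30a7 and Prkcd, with Pearson r of 0.99 over the 10 groups. For Inhbb they were Rin2, Ephb6 and Eme2 (0.95 to 0.97), for Tgfb1 Sbsn, Numb and Dact1 (0.98 to 0.99), and for Tgfb2 P2rx4, Hs1bp3 and Pomk (0.95 to 0.96). Tgfb3 was most like Tmod1, Xaf1 and Calml4 (0.99), Tgfbr2 like Zfp955a, Sphk1 and Synpo (0.98 to 0.99), and Tgfbr3 like Angpt4, Fyttd1 and Tslp (0.96 to 0.97). Tgfbr1 was left out because its range was under 1.

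The other genes of the pathway were taken as lists, and their counts of calls stand beside 19.5% and 21.5% of all genes called with BMP2 at d3 and d6 in C2C12-pMirn0 cells, and 4.38% and 2.85% called between the lines with BMP2 at d3 and d6. Every difference between the lines that is named for a list gene here lost its call when the fit held only the compared groups, with adjusted p between 0.00725 and 0.0774. Of 11 measured genes listed for the latent complex and its activation, 4 were higher in C2C12-pMirn0 cells with BMP2 at d3 and 0 lower. At d6 2 were higher and 3 lower. Their median log2 ratios were 0.20 and 0.13 beside 0.05 and 0.08 for all genes. Ltbp1, a protein that holds latent TGF-beta in the matrix, averaged 4035 with BMP2 and 1339.8 without it at d3, and 3574 and 1243 at d6 (log2 ratio 1.59 and 1.53). Thbs1, thrombospondin 1, which can release TGF-beta from its latent form, was higher with BMP2 at d3 (log2 ratio 1.36) and lower at d6 (-1.13). At d6 with BMP2, Thbs1 averaged 8239 in C2C12-pMirn378 and 3615 in C2C12-pMirn0 cells (log2 ratio 1.18, adjusted p = 1.37e-08). Ltbp2, on this list by its family name, with binding of latent TGF-beta not tested, was lower in C2C12-pMirn378 cells with BMP2. Its means were 746 against 1278 in C2C12-pMirn0 cells at d3 and 518 against 887 at d6 (log2 ratio -0.78 and -0.77, adjusted p = 1.02e-06 and 1.85e-06). These were the calls of this list between the lines with BMP2, 1 lower at d3, and 1 higher and 1 lower at d6. Itgb8, a chain of an integrin that activates TGF-beta, fell by 1.93 on the log2 scale with BMP2 at d6 in C2C12-pMirn0 cells.

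Of a list of 7 secreted proteins, mostly inhibitors of activin and myostatin, 2 were higher and 1 lower at d3, and 2 higher and 2 lower at d6, with BMP2 in C2C12-pMirn0 cells, with medians of 0.13 at both days. Fst, follistatin, averaged 1088 with BMP2 and 4304 without it at d6 (log2 ratio -1.98, adjusted p = 4.82e-16), and its untreated level at d6 was above the 713 of d0. At d6 with BMP2, Fst was higher in C2C12-pMirn378 cells, averaging 1821 against 1088 in C2C12-pMirn0 cells (log2 ratio 0.74, adjusted p = 2.52e-07). It was the only gene of this list called between the lines with BMP2. The means of Fst went the other way in every other condition, with C2C12-pMirn378 cells below C2C12-pMirn0 cells. They were 436 against 713 at d0, and without BMP2 2924 against 3655 at d3 and 2647 against 4304 at d6. At d3 with BMP2 they were 2073 against 2593, which was not called. Dcn, the matrix proteoglycan decorin, which binds TGF-beta and myostatin, was higher with BMP2 by 1.97 at d3 and 2.00 at d6, whereas Bmper, a secreted modulator of BMP signaling and not an inhibitor of activin, was lower, with log2 ratios of -1.06 at d3 and -3.84 at d6. The d3 call of Bmper was lost when the fit held only the compared groups (adjusted p = 0.0106). Fstl3, a relative of follistatin that also binds activin, was higher with BMP2 at d3 by 1.31 on the log2 scale.

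Of 10 partner receptors and coreceptors, 1 was higher and 1 lower with BMP2 at d3 in C2C12-pMirn0 cells, and 2 higher and 1 lower at d6, with medians of 0.31 and 0.09. Acvr2a, a type II receptor for activin and myostatin, averaged 768 with BMP2 and 1959.7 without it at d6 (log2 ratio -1.35, adjusted p = 2.08e-12) and 792 and 1592 at d3 (-1.01), and its untreated level at d6 was 1.46 above d0 on the log2 scale. Bambi, a decoy receptor that lacks the kinase, was higher with BMP2 by 3.20 at d3 and 3.14 at d6, against untreated means of 32.4 and 29.7, which lie below the median of all values. It was also higher in C2C12-pMirn378 cells relative to C2C12-pMirn0 cells with BMP2, at 933 and 289.7 at d3 and at 634 and 261 at d6 (log2 ratio 1.69 and 1.28, adjusted p = 0.000112 and 0.00320), where the d6 call was lost without replicate 1 or 3 of C2C12-pMirn378 or without any 1 of the 3 arrays of C2C12-pMirn0, with adjusted p up to 0.0251. Acvrl1, an endothelial type I receptor, was called higher with BMP2 at d6 at means of 71.5 and 13.1, both below the median of all values. This call was lost when values under 50 were set to 50 (log2 ratio 0.50) and without untreated replicate 1 or 3 or BMP2 replicate 1 or 2 (adjusted p up to 0.0119).

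Of 11 Smads and brakes of the pathway, 5 were higher and 2 lower with BMP2 at d3 in C2C12-pMirn0 cells and 4 higher and 2 lower at d6, with medians of 0.40 and 0.48. Smad7, an inhibitory Smad that both TGF-beta and BMP induce, averaged 1050.3 with BMP2 and 235 without it at d3 and 1207 and 322 at d6 (log2 ratio 2.16 and 1.91). Smurf2, a ubiquitin ligase that acts with Smad7, was higher by 2.14 at d3. Smad3, which carries the TGF-beta and activin signal, was lower with BMP2, at 1507 against 2972 at d3 and 1512 against 2632 at d6 (log2 ratio -0.98 and -0.80), and Pmepa1, a TGF-beta-induced brake, was lower by 0.98 at d6. Between the lines Tgif1, a corepressor, was the only gene of this list called at d3 with BMP2, at -0.63, and 0 were called at d6 by limma, where the count at an unadjusted p under 0.05 was 5. Of 7 further ligands of the branch, limma called 0 with BMP2 at d3 and 0 at d6 in C2C12-pMirn0 cells, with 1 and 2 at an unadjusted p under 0.05.

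Of 12 measured genes known as targets of TGF-beta, 8 were higher and 0 lower with BMP2 at d3 in C2C12-pMirn0 cells, beside 19.5% of all genes called, and 2 were higher and 0 lower at d6, beside 21.5%. Their median log2 ratio was 1.07 at d3 and 0.11 at d6, beside 0.05 and 0.08 for all genes. Postn, the matrix protein periostin, averaged 15882 with BMP2 and 1101 without it at d3 (log2 ratio 3.85), and Ccn2, connective tissue growth factor, averaged 22537 and 2824 (3.00). Lox, the enzyme that crosslinks collagen, was higher by 1.58 at d3. At d6 Ccn2 and Tgfbi, a secreted matrix protein induced by TGF-beta, were called, at 1.89 and 2.60, whereas Postn was at -0.02. The untreated level of Postn had reached 11061 at d6, against 223 at d0, and its level with BMP2 was below the 15882 of d3. Several of these genes are also known to respond to BMP and in bone differentiation.

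**Figure D5:**
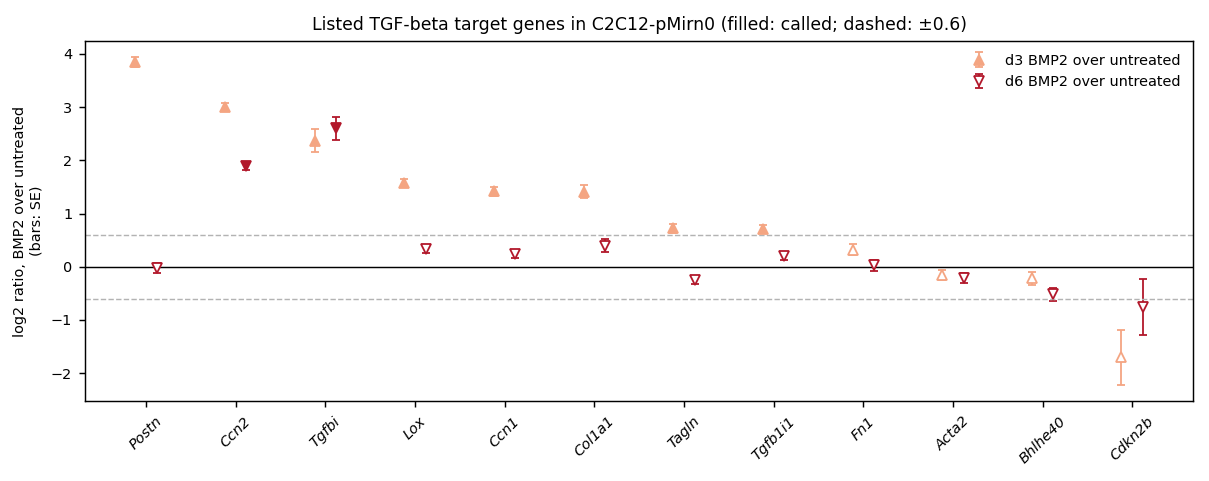
Log2 ratio of BMP2-treated over untreated C2C12-pMirn0 cells (vertical axis) for 12 genes listed as TGF-beta targets at d3 and d6, with bars for the SE and filled symbols for calls. Of the 12 genes, 8 are called higher at d3 and 2 at d6.

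Between the lines, C2C12-pMirn378 over C2C12-pMirn0, 1 of the 12 target genes was called higher at d3 with BMP2, beside 4.38% of all genes called, and 5 at d6, beside 2.85%, and 0 were lower at either day, with medians of 0.15 and 0.43 beside -0.01 and -0.02 for all genes. At d6 with BMP2, Lox averaged 16143 in C2C12-pMirn378 and 9552 in C2C12-pMirn0 cells (log2 ratio 0.76), Postn 19878 and 10891 (0.87), and Ccn2 26947 and 17582 (0.61). In the fit of the compared groups alone their adjusted p was 0.0442, 0.0305 and 0.0774. The call of Ccn2 was also lost without replicate 1 of either line, at 0.55 and 0.58. At d3 with BMP2 the called gene was Col1a1, the type I collagen gene, with 4719.8 in C2C12-pMirn378 and 2749.7 in C2C12-pMirn0 cells (log2 ratio 0.78, adjusted p = 8.99e-05). These lists were chosen with results of these arrays known and are not independent evidence of a direction.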

How the data were processed

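RNA of 30 cultures had been hybridised to Affymetrix Mouse Genome 430 2.0 arrays, 3 per group. The deposited values are intensities on a linear scale. The authors describe RMA with quantile normalization, run in R 2.4.1, but the medians of the deposited arrays were unequal (68.0 to 82.7). No detection calls were used. All columns were mapped to samples, and 0 columns were left unused for want of a sample.

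Intensities were taken to log2 with no offset. Means of the 10 groups were fitted with limma 3.58.1 in R 4.3.3 (eBayes, 20 residual degrees of freedom), without a replicate block, and p-values were adjusted by Benjamini-Hochberg over 45101 probe sets in each of 19 comparisons. Differences were called at a log2 ratio over 0.6 in size with adjusted p below 0.005. The study's methods state these thresholds, but for time they combine the d6 p-value with the mean of the d3 and d6 ratios, whereas each day was called singly here. That combined rule was run as an alternative. Shares of all genes called are over 18194 genes, each read from its brightest probe set. Of the probe sets, 34958 had 1 symbol, 932 had several and 9211 had none, and none was named from several. Intervals are 95% intervals of the fit. The fit was tested on simulated data.

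The members and lists were chosen with earlier results of these data known. All members were described by their brightest probe set, and from each list at most 3 called genes per comparison, those with the smallest adjusted p, were named by rule. The fits were repeated with dim probe sets removed, a replicate block, trended robust eBayes, an offset of 16, a floor of 50, quantile normalization, centring on bright probe sets, fits of the compared groups alone, the second brightest probe set, other thresholds and leaving out each array. Replicate numbers were not used to pair the samples in the main fit. Array values hold no counts, and the number of arrays limits the precision.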

Additional observations from a re-analysis of the deposited data

Results flagged for a closer look

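The response of Inhbb to BMP2 at d6 differed between C2C12-pMirn378 and C2C12-pMirn0 cells by 1.30 on the log2 scale (95% interval 1.00 to 1.61) in the test of the interaction, with BMP2 over untreated ratios of -0.94 in C2C12-pMirn378 and -2.24 in C2C12-pMirn0 cells. The second probe set of Inhbb gave 0.50 for this interaction, without a call (adjusted p = 0.136). The response of Tgfb3 at d6 differed in the same test by 0.62 (95% interval 0.42 to 0.82), with ratios of -0.73 in C2C12-pMirn378 and -1.35 in C2C12-pMirn0 cells.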

How the results depend on the processing

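The calls over the 8 genes numbered 37 for d3 or d6 over d0, 22 for BMP2 over untreated, 5 between the lines and 2 for the interaction. Leaving out 1 array gave 36 to 40, 20 to 24, 4 to 6 and 1 to 3. With the replicate number as a block the counts were 37, 22, 5 and 3. Of the 80 single results that were called under any setting, 79 kept their direction and side of the threshold. The exception was Inhbb at d3 in the interaction. Among the list genes, the difference of Bambi between the lines at d6 with BMP2 was lost with the block (adjusted p = 0.00537). Same-numbered arrays of different groups had a mean correlation of deviations of 0.04, and differently numbered ones had -0.02. These values do not settle whether the cultures were paired, and the numbers were not taken to pair them in the main fit. With fits of the compared groups alone, 30, 15, 0 and 0 were called (limma; 49, 29, 12 and 8 at an unadjusted p under 0.05, against 54, 31, 17 and 8 in the fit of all groups). Of 52 results on named list genes, 15 lost their call in those fits. For d6 over d0, the study's rule of the d6 p-value and the mean ratio of d3 and d6 gave 17 calls against 19. An adjusted p under 0.05 with no minimum ratio gave 12 between the lines and 5 for the interaction.

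The second brightest probe sets gave 23, 9, 0 and 1 calls. Comparisons called under no setting were left out of the next count. Some of them changed sign too, as Inhbb did at d6 with BMP2 over d0 in C2C12-pMirn0 cells. Of the 67 single results with a second probe set and a call under any setting, the second probe sets reversed 12, none with a call. These were -0.32 for Tgfb1 at d3 with BMP2 over d0 in C2C12-pMirn0 cells, and for Tgfbr2 0.80 at d6 with BMP2 over d0 in C2C12-pMirn0 and 0.29 with BMP2 at d3 in C2C12-pMirn378 cells. For Tgfbr3 they were -0.90 at d6 with BMP2 over d0 in C2C12-pMirn378 cells and 1.75 between the lines at d0. For Inhba they were 1.07 and 1.55 over d0 without BMP2 at d3 and d6 in C2C12-pMirn378 cells, -1.41 and -0.92 over d0 with BMP2 in C2C12-pMirn0 cells, and -0.32, -1.02 and -0.086 for BMP2 over untreated at d3 and d6 in C2C12-pMirn378 and at d6 in C2C12-pMirn0 cells. The cause was not tested. The second probe sets of Inhba, Tgfbr2 and Tgfbr3 had mean log2 values of 3.26, 5.23 and 4.01, below the median of 6.26, where the spread between arrays was large.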
